A study of Mus musculus with 17 samples.

Results

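The sham-operated kidneys of a mouse time course were examined by period after surgery, with the late days 14, 21 and 30 set against the early days 1, 3 and 5. The sham arm comprised 8 of the 17 samples of the series, 1 for each day, and 6 of them entered the comparison, 3 early and 3 late. The samples of days 7 and 10 were kept apart, to see on which side they lay. All 569 mature mouse microRNAs (miRs) of the array were members, chosen by being mature mouse miRs and not by their levels, and 90 of them (15.8%) were bright enough to be tested, with a mean processed value of at least 200 over the 8 sham samples.

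Every sample was RNA from the kidneys of 3 pooled mice of the strain C57/BL6, 10 to 12 weeks old and untreated apart from surgery. The labels give female mice and the study's methods male mice. On each of 8 arrays the sham pool of a day, labelled Cy5, was hybridised together with the pool of mice that had undergone unilateral warm ischemia reperfusion injury (IRI, with 30 minutes of ischemia) and were taken on the same day, labelled Cy3. A pool of naive mice, without surgery, was hybridised alone in Cy3. Since all sham pools carried the same dye, a dye bias that is equal on all arrays drops out of a difference between days of the sham arm. No day had a second pool, so the days of a period served as its replicates, and time after surgery, the age of the mice at harvest and the array of the day cannot be told apart. The mice of a pool share 1 value, and in whole kidney RNA fewer cells of a type cannot be told apart from less of a miR per cell.

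MicroRNAs are short RNAs that bind messenger RNAs through their seed, bases 2 to 8 from the 5′ end, and lower the output of the messages they bind. Those with the same seed form a family, and those encoded close together are often cut from a common transcript. Much of a kidney's miR content comes from tubular epithelium, where miR-192, miR-194, miR-10 and the miR-30 and miR-200 families are known to be abundant, whereas miR-126 marks endothelium, miR-143 and miR-145 smooth muscle, and miR-451 and miR-486 red blood cells. The let-7 family was the brightest in these arrays, with a summed processed value of 209783 to 227832 in the early sham pools and of 219913 to 268948 in the late ones.

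After false discovery control, 0 of the 90 miRs differed between late and early sham (limma, Benjamini-Hochberg adjusted p under 0.05, 0% of those tested). At an unadjusted p under 0.05, 13 of them (14.4%) passed, of which 9 were higher late (10%) and 4 lower (4.44%). The largest difference, that of miR-145, had an adjusted p of 0.0723 in limma and passed under other settings, as given beside its values. For 25 miRs (27.8%) the 3 late values lay wholly above or wholly below the 3 early values, with 17 higher late (18.9%) and 8 lower (8.89%), and these are described below as differences that did not pass. They include miR-122, which was bright enough only through the day 30 pool. Without it 24 of 89 were without overlap (27%) and 16 were higher (18%). The split depends on the scaling: it was 5 higher to 20 lower after median scaling of the processed values and 9 to 15 in scanner values with empty spots subtracted, which moved the median of all tested miRs to -0.24 and -0.19. An exact permutation test of 3 against 3 samples cannot give a p under 0.1. Over all 90 miRs the median late minus early difference was -0.01 on the log2 scale, 44 differences (48.9%) were above 0, and 10 (11.1%) were over 1 log2 in size in either direction. A difference is always that of the mean log2(processed value + 50) of the late pools less that of the early pools.

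Over the 90 miRs every late sham pool was brighter than every early one, by sum and by median. The median processed value was 1273.5 to 1336 in the early pools and 1490.5 to 1668 in the late ones. Median scaling takes this offset out. The summed processed value of the 90 miRs was 439317 to 450759 in the early pools and 456700 to 501417 in the late ones, and 88 of the 90 were above the empty spots in all 8, while of all 569 miRs between 154 (day 30) and 248 (day 1) were. Over the 90 miRs, the log2 values of 2 late pools correlated at Pearson's r of 0.909 to 0.988, those of 2 early pools at 0.912 to 0.932, and those of an early and a late pool at 0.852 to 0.966, as a description over miRs, which are not independent. The ranges of these correlations overlap, so in profile the pools did not fall cleanly into 2 groups by period. Day 30 correlated at 0.852 to 0.87 with the early pools, and day 10 differed from every other pool by a median of 0.50 to 0.75 log2 without sign.

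The 90 tested miRs held 14 seeds that were shared by at least 2 of them. In 10 of these seeds all members lay on 1 side of 0 and in 4 they were divided, and 7 seeds had no member without overlap. The mature sequences of the 4 seeds whose members were all without overlap, of the AGCAGCA members without overlap and of miR-214 (where a match was found) are shown since the seed and the number of differing letters tell which probes read near-identical targets; the seed is in capitals, and the letters are those of the array's probes that match RefSeq mature miRs (GRCm38.p6) exactly, as 69 of the 90 did.
miR-16: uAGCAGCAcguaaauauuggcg
miR-195: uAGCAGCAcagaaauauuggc
miR-15a: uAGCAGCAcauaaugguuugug
miR-125a-5p: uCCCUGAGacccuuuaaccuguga
miR-125b-5p: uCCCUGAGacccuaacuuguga
miR-10a: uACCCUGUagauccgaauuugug
miR-10b: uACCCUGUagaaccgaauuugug
miR-23a: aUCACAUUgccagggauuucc
miR-103: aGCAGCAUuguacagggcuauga
miR-107: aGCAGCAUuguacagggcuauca
miR-214: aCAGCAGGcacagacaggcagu
The seed AGCAGCA was carried by 4 tested miRs, all lower late by their means and 3 of them without overlap, against 8.89% of all tested miRs. CCCUGAG and ACCCUGU were carried by 2 each, all lower without overlap, and GCAGCAU and UCACAUU, the seed of miR-23a and miR-23b, by 2 each, all higher without overlap, against 18.9% of all tested. The let-7 seed GAGGUAG, with the most members, 9, and the miR-30 seed GUAAACA, with 5, had members on both sides. The probes of miR-10a and miR-10b differ at 1 position, as do those of miR-103 and miR-107 and those of miR-23a and miR-23b, so that the members of such a pair are not independent measurements. miR-16 and miR-195 differ at 3 positions.

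miR-145, a miR of smooth muscle cells, gave the largest difference. Its processed value in sham was 876, 1148 and 1991 on days 1, 3 and 5, 1686 and 1847 on days 7 and 10, and 4587, 5688 and 8748 on days 14, 21 and 30. The late pools were all above the early ones, and days 7 and 10 lay between the means of the periods. The mean was 1338 ± 581 (SD, n = 3) early and 6341 ± 2156 (SD, n = 3) late, a ratio of 4.74, and the log2 difference was 2.23 ± 0.38 (SE). In limma the adjusted p was 0.0723, ranging from 0.0035 to 0.257 over the alternatives, and was under the threshold in 7 of 22 settings, among them the quantile-normalized scanner intensities (0.0386) and a slope over log2(day) (0.0035). Leaving out the day 5 pool also brought it under the threshold, with a difference of 2.55 (adjusted p = 0.0388 in limma). In the scanner intensities over empty spots, before any scaling, it read 803, 1499 and 1546 early and 5101, 5402 and 3275 late, again without overlap.

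miR-143, which is encoded beside miR-145 and is likewise known from smooth muscle, did not lie in the same way. It measured 1601, 1505 and 1257 early, 2330 and 3649 on days 7 and 10, and 1605, 1461 and 1687 late. The periods overlap, the highest pools being those of the days between, and the difference was 0.12 ± 0.18 (SE, adjusted p = 0.791 in limma). The naive pool read 3518 for miR-145 and 3589 for miR-143, but in Cy3 and hybridised alone. Surgery and dye thus cannot be told apart when these levels are set beside those of sham. The median of the smooth muscle list, 1.18 over these 2 members, lies near neither of them.

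**Figure D1:**
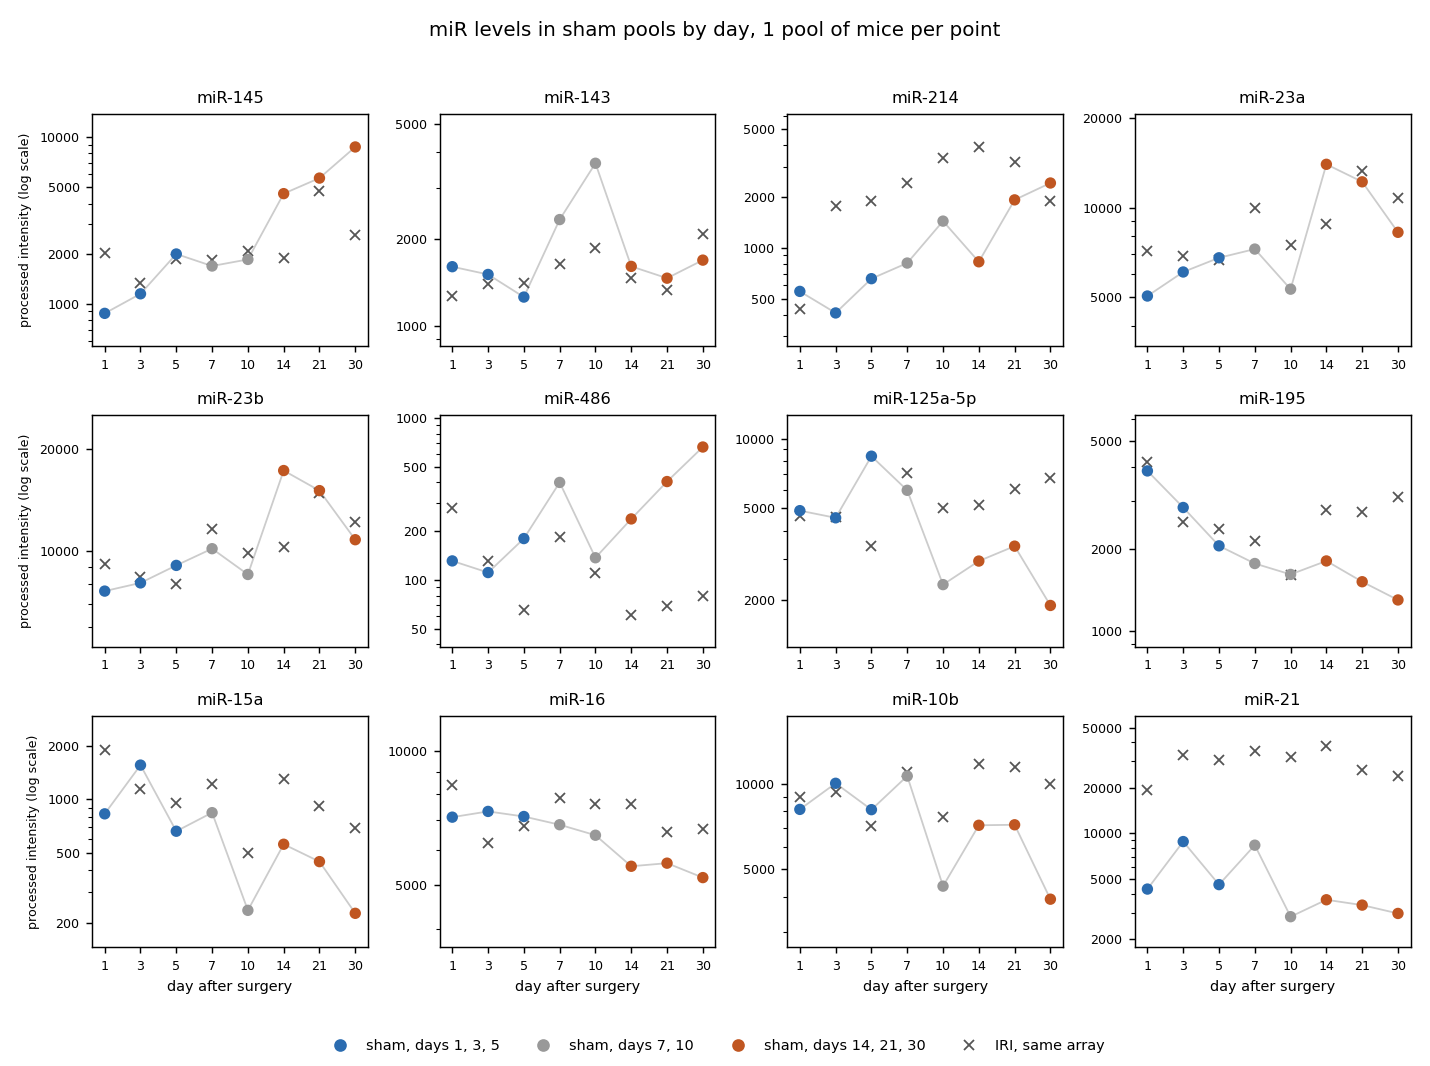
Processed intensity on a log axis against the day after surgery for 12 miRs, with 1 pool of 3 mice per point. Circles are sham pools, coloured by period, and crosses are the IRI pools of the same arrays. For miR-145 the late sham pools lie between 4587 and 8748, above all early ones, and for miR-16 between 5206 and 5609, below all early ones.

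miR-214, a miR known to be raised in fibrotic kidneys and cut from a transcript antisense to a dynamin gene, read 552, 412 and 656 early, 811 and 1433 on days 7 and 10, and 825, 1912 and 2404 late. The late pools were all higher, with day 14 close to the early level, and the difference was 1.47 ± 0.41 (SE, adjusted p = 0.196 in limma). Its mature sequence lies at chr1:162223438-162223459 (GRCm38.p6, + strand), within the spans of Dnm3 and Dnm3os. miR-199a-3p, 5555 bases upstream in the same transcript at 1 of its 3 loci, read 887, 1199 and 500 early and 1373, 1182 and 1180 late. Here the periods overlap by a narrow margin and the difference was 0.58 (adjusted p = 0.374 in limma). miR-21, the classic injury miR of the kidney, lay the other way. It read 4287, 8829 and 4587 early, 8360 and 2816 on days 7 and 10, and 3644, 3359 and 2959 late, without overlap and with a difference of -0.75 ± 0.31 (SE, adjusted p = 0.307 in limma). Without the day 3 pool it was -0.42, and with quantile-normalized scanner values -0.33. The 8 sham values of miR-21 stayed below all 8 IRI values, which ran from 19453 to 37621, but every IRI pool was Cy3 and every sham pool Cy5, so that arm and dye cannot be told apart in these levels. Of the 6 tested miRs listed for injury and fibroblasts, 5 were positive and 1 negative, with a median of 0.30. That median was 0.05 after median scaling, 0.12 without the day 5 pool and 0.02 in quantile-normalized scanner values without the day 5 channel. In that list 2 were higher without overlap (miR-214 and miR-221, with a difference of 0.42) and 1 lower, against 18.9% and 8.89% over all tested.

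miR-23a and miR-23b, which are known from endothelium and muscle and are processed from separate clusters with a miR-24 and a miR-27, were both higher late. miR-23a measured 5039, 6071 and 6777 early, 7251 and 5314 on days 7 and 10, and 13989, 12213 and 8257 late. Its difference was 0.92 ± 0.26 (SE, adjusted p = 0.196 in limma), and it passed in the quantile-normalized scanner intensities, with 1.07 (adjusted p = 0.0386), in 2 of 22 settings in all. miR-23b, whose probe differs from it at 1 position, measured 7636, 8073 and 9092 early and 17314, 15108 and 10825 late, a difference of 0.78. The highest pool of both was that of day 14 and the lowest late pool that of day 30. miR-24, which comes from both clusters, was 0.36 higher late without overlap, but its brightest sham pool was that of day 10, at 5423 against 2425 to 3205 late. miR-27a, 164 bases from miR-23a on chromosome 8 (chr8:84208727-84208747 and chr8:84208563-84208583), read 1222, 1947 and 1161 early and 1630, 1312 and 662 late, with overlap and a difference of -0.31. miR-27b was level, with a difference of 0.00. The members of the 2 clusters thus lay on different sides of 0, with 3 of the 5 higher late without overlap (18.9% over all tested) and a median of 0.36, which was 0.10 after median scaling of the processed values and 0.05 with empty spots subtracted.

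Of the 3 listed miRs of red blood cells 2 were tested, and both were higher late. The one not tested, miR-144, was above background in no sham pool. miR-486 measured 131, 111 and 180 early, 400 and 137 on days 7 and 10, and 238, 405 and 662 late, with a difference of 1.27 ± 0.36 (SE, adjusted p = 0.196 in limma). miR-451 measured 197, 204 and 232 early, 406 and 51 on days 7 and 10, and 308, 324 and 882 late, with a difference of 0.94 ± 0.39 (SE, adjusted p = 0.307 in limma). Neither overlapped between the periods (18.9% of all tested were higher late without overlap), and both were highest on day 30, without which the differences were 0.94 and 0.49. Day 7 reached the late level in both, and day 10 lay below all other sham pools for miR-451. The summed processed value of the list was 318 to 419 early and 561 to 1560 late, and the part of blood left in the kidneys in this was not tested.

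miR-122, a miR made almost only in hepatocytes, stood apart by 1 pool. It read 19, 19 and 16 early, 30 and 20 on days 7 and 10, and 22, 24 and 3571 late. It was above background in 3 of the 8 sham pools, and between 18 and 31 in all IRI pools and 36 in the naive pool, so that it was tested only through day 30. The difference of 1.98 ± 1.49 (SE, adjusted p = 0.56 in limma) was 0.10 without that pool. The lists of skeletal and heart muscle, pancreas and neural miRs had 0 tested members, with summed processed values of at most 159 in any sham pool. The source of the miR-122 reading in the day 30 pool, and whether it bears on the other values of that pool, was not tested.

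**Figure D2:**
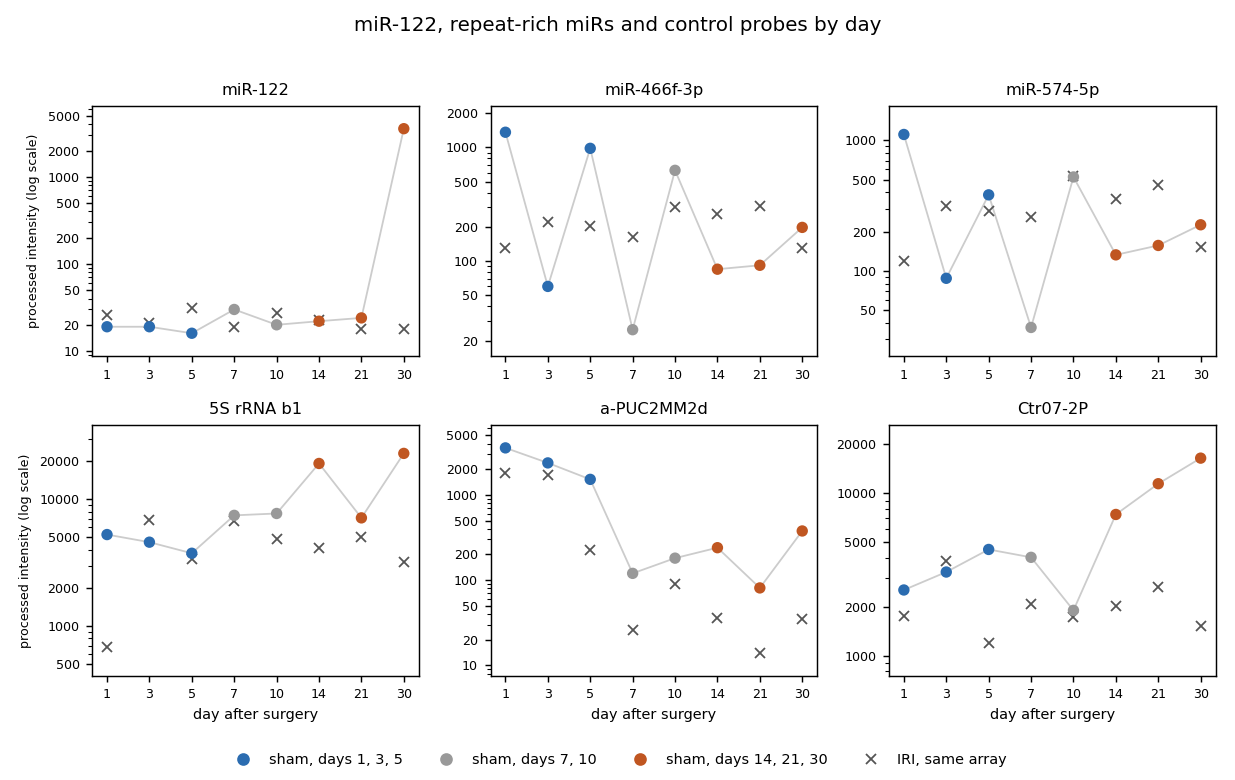
Processed intensity on a log axis by day for miR-122, for 2 miRs with dinucleotide repeats and for 3 control probes, with sham pools as circles coloured by period and IRI pools of the same arrays as crosses. miR-122 is at 3571 on day 30 and at most 30 in the other sham pools. The control probes shown were picked for a difference between the periods, and of the 9 spike probes with a sham mean of at least 200, 7 overlapped between the periods.

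Among the miRs that were lower late, the miR-15 and miR-16 family, which restrains cell cycle genes, had all 4 tested members below 0, with a median of -0.63 against -0.01 over all tested. It was -0.90 after median scaling of the processed values and -0.92 with empty spots subtracted, which also lower the median of all tested, as given above. miR-15a read 829, 1564 and 661 early, 842 and 236 on days 7 and 10, and 558, 445 and 227 late, a difference of -1.20 ± 0.42 (SE, adjusted p = 0.221 in limma). miR-195 read 3878, 2847 and 2059 early, 1773 and 1617 on days 7 and 10, and 1812, 1520 and 1303 late, a difference of -0.87 ± 0.28 (SE, adjusted p = 0.214 in limma). Day 14 was the only day on which miR-195 was higher than on the day sampled before it. With a slope over log2(day) in place of the periods it passed, at -0.30 for each doubling of time (adjusted p = 0.0382 in limma), in 1 of 22 settings. miR-16, by far the brightest of the family, had the tightest periods, with 7114, 7328 and 7138 early, 6841 and 6480 on days 7 and 10, and 5520, 5609 and 5206 late. The ratio of late to early was only 0.757, the difference -0.40 ± 0.16 (SE, adjusted p = 0.3 in limma), and in the quantile-normalized scanner intensities it was -0.10 and the periods overlapped. With the processed values the difference was -0.02 after quantile normalization and -0.67 after median scaling. With scanner values it was -0.195 with loess and -0.64 with empty spots subtracted. miR-15b read 1315, 1504 and 1470 early and 1325, 1279 and 1233 late, with overlap and a difference of -0.15.

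The genes of this family lie in pairs. miR-15a (chr14:61632075-61632096, GRCm38.p6, - strand) and the first copy of miR-16 (chr14:61631936-61631957) are 139 bases apart within the lncRNA gene Dleu2, and miR-15b (chr3:69009775-69009796, + strand) and the second copy of miR-16 (chr3:69009918-69009939) are 143 bases apart within Smc4. miR-195 stands elsewhere, at chr11:70235062-70235082. The array reads the sum of both miR-16 copies, so that a pair cannot be followed through miR-16. The difference of miR-15a was larger in size than that of miR-15b, but their difference was not tested.

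miR-125a-5p and miR-125b-5p, homologs of the first known miR of worms, were lower late as well. miR-125a-5p measured 4880, 4543 and 8399 early, 5977 and 2334 on days 7 and 10, and 2952, 3425 and 1896 late, a difference of -1.08 ± 0.33 (SE, adjusted p = 0.212 in limma). miR-125b-5p measured 2753, 2545 and 5647 early and 2074, 2164 and 2375 late, a difference of -0.62 ± 0.33 (SE, adjusted p = 0.363 in limma) that was -0.26 without day 5. For both the day 5 pool was the highest of all 8 sham pools, and the late pools were below every early one. miR-125a-5p lies at chr17:17830817-17830840 (GRCm38.p6) within Spaca6, 451 bases from let-7e and 623 bases from miR-99b. These cluster mates overlapped between the periods, with differences of -0.03 and -0.11.

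The tubular miRs were divided. miR-10b, encoded among the Hoxd genes, read 8124, 10044 and 8106 early, 10656 and 4352 on days 7 and 10, and 7139, 7168 and 3914 late, a difference of -0.57 ± 0.29 (SE, adjusted p = 0.363 in limma). miR-10a, encoded among the Hoxb genes, read 5730, 7477 and 5853 early, 7773 and 3062 on days 7 and 10, and 4749, 5016 and 2819 late, a difference of -0.63 ± 0.28 (SE, adjusted p = 0.331 in limma). Both were without overlap, both were highest on day 7, and both were low on days 10 and 30. Without the day 30 pool the differences of miR-10a and miR-10b were -0.37 and -0.28. miR-192 and miR-194, which are encoded together on chromosome 19, were level, with differences of 0.04 and -0.07, and miR-196a and miR-187 were at 0.21 and 0.08. The list of tubular miRs had 6 tested members of 10, 3 above and 3 below 0. Its median was -0.02, and -0.32 with empty spots subtracted, -0.28 after median scaling of the processed values and -0.23 without day 1. All 6 were above background in all 8 sham pools.

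The miR-200, miR-30 and let-7 families are known to keep epithelium in its differentiated state. The miR-200 family had all 4 tested members below 0, from -0.55 to -0.13, and all 4 overlapped between the periods. Its median was -0.41, and -0.25 without day 1, -0.67 after median scaling and -0.69 with empty spots subtracted. Its brightest member, miR-200b, read 10050, 10665 and 8001 early and 7277, 8619 and 6696 late. In the miR-30 family 2 were positive and 3 negative, with a median of -0.25. Leaving out a pool moved this median to between -0.45 (without day 1) and 0.10 (without day 30), with -0.06 without day 5 and -0.08 without day 3. It was -0.51 after median scaling of the processed values and -0.52 with empty spots subtracted, and -0.09 with loess and -0.07 with quantile-normalized processed values. Its member miR-30d was higher late without overlap, at 0.33, with all 8 sham values between 1843 and 2759. The let-7 family had 5 positive and 4 negative members, none without overlap, with a median of 0.14. Leaving out a pool moved it to between 0.05 (without day 30) and 0.21 (without day 21). It was 0.30 with loess, but -0.13 after median scaling of the processed values, -0.06 with empty spots subtracted and -0.04 with quantile normalization of either the processed or the scanner values. The brightest, let-7a, read 36983, 35479 and 37263 early and 39457, 36942 and 46022 late. miR-98, a let-7 member, was at 1168 and 328 on days 7 and 10 and between 3980 and 6285 on the days compared, so that its lowest pools fell outside both periods.

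Endothelial and leukocyte miRs did not separate the periods. miR-126-3p, the endothelial miR, read 6408, 9445 and 7976 early and 9735, 6526 and 4514 late, with a difference of -0.25 (adjusted p = 0.753 in limma) that was 0.02 without day 30. The leukocyte list had 2 tested members of 5, miR-150 at -0.02 and miR-155 at -0.17, and its summed processed value was 521 to 861 early and 586 to 773 late. Of this list 2 members were above background in all sham pools and 2 in none. The miR-26 family had both members below 0 with overlap, miR-26a at -0.40 and miR-26b at -0.33. Without the day 30 pool miR-26a was at -0.19 and the median of both at -0.13. miR-29a and miR-29c, which restrain collagen genes, were at 0.13 and -0.05, and the median of both ran from -0.29 without day 1 to 0.37 without day 3. The miR-17-92 cluster and its paralogs had 4 positive and 1 negative tested members with a median of 0.08, none without overlap, and the median ran from -0.06 (without day 1) to 0.23 (without day 5) when a pool was left out, with 0.03 without day 21. It was -0.14 after median scaling of the processed values and 0.01 with empty spots subtracted.

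**Figure D3:**
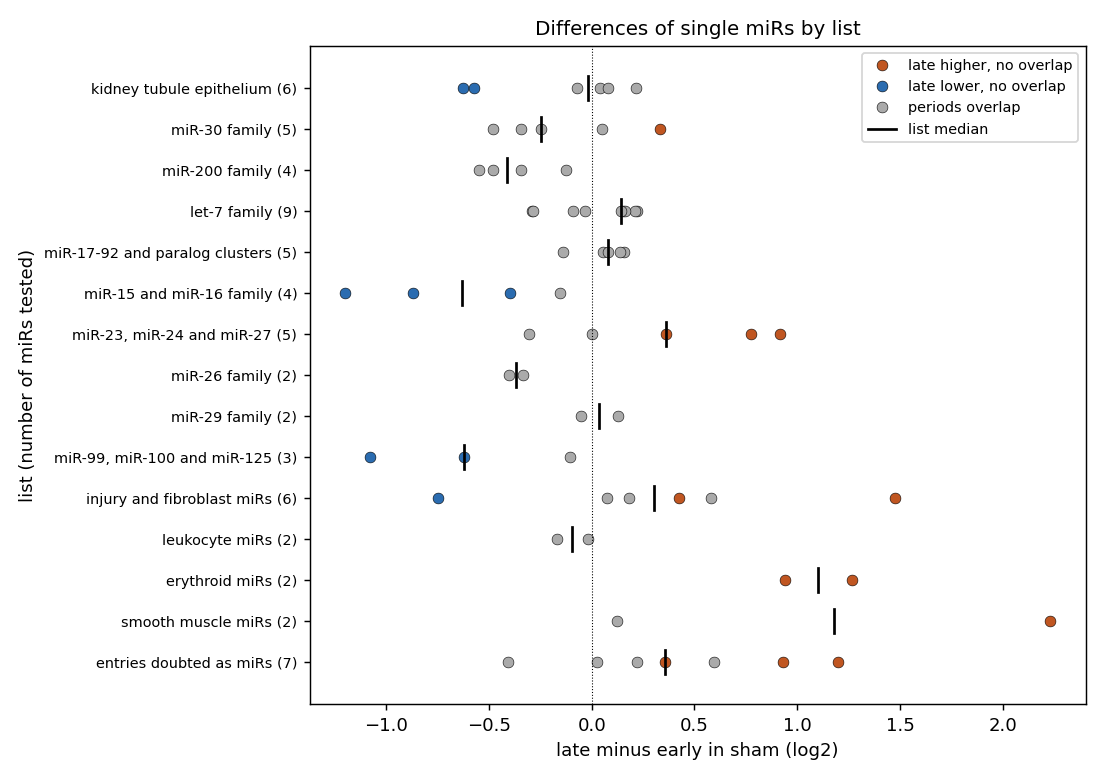
Late minus early difference in sham (log2) of each tested miR, in rows by list with the number tested in brackets. Orange and blue points are miRs whose 3 late and 3 early values do not overlap, grey points those that overlap, and the bar is the list's median, which lies at -0.63 for the miR-15 and miR-16 family and at 1.10 for the erythroid miRs.

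Some of the brighter entries of the array are doubted as miRs, because their letters match other RNAs such as tRNA or rRNA. Of the 7 tested, 6 were positive and 3 were higher late without overlap (18.9% over all tested). Their median was 0.36, and between 0.22 (without day 3) and 0.75 (without day 5) when a pool was left out. It was 0.09 after median scaling of the processed values, 0.16 with empty spots subtracted and -0.03 with no filter on brightness, and 0.78 in quantile-normalized scanner values without the day 5 channel. miR-720, whose letters match a tRNA fragment, read 553, 387 and 466 early, 661 and 2280 on days 7 and 10, and 1171, 808 and 1521 late, with a difference of 1.20 ± 0.28 (SE, adjusted p = 0.185 in limma). miR-709 read 17677, 12406 and 22950 early and 25764, 26733 and 50611 late, with a difference of 0.93 ± 0.36 (SE, adjusted p = 0.289 in limma), or 0.61 without day 30. The probes for 5S rRNA lay on the same side in sham. The first of them read 5266, 4586 and 3750 early, 7465 and 7723 on days 7 and 10, and 19157, 7131 and 23004 late, a ratio of late to early of 3.62. Of the 5 such probes 4 were higher late without overlap (18.9% of the tested miRs were), at ratios of 2.70 to 3.64, and the last, at 1.98, overlapped.

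Of the 43 probes for added control RNA, 9 had a mean of at least 200 over the 8 sham pools, the brightness asked of the miRs. Most of these 9 carry PUC2 in their names, and some read nearly alike, so they are not independent measurements. For example, a2-PUC2PM-20B and a3-PUC2PM-20B read 17741 and 17167 on day 1 and 43907 and 43140 on day 5. Of these 9 probes 2 did not overlap between the periods (22.2%, against 27.8% of the tested miRs), and the other 34 were dimmer. The first of the 2, a probe named Ctr07-2P, read 2537, 3273 and 4507 early, 4031 and 1901 on days 7 and 10, and 7402, 11446 and 16450 late in sham, a ratio of 3.42. In the IRI channel of the same arrays it stayed between 1202 and 3835. The second, a mismatched spike probe named a-PUC2MM2d, read 3554, 2369 and 1519 early and 240, 81 and 377 late, a ratio of early to late of 10.7, and its IRI channel also had its highest readings, 226 to 1796, on days 1, 3 and 5. Its matched partner, a-PUC2PM, overlapped between the periods, with a ratio of late to early of 0.963. The part of these arrays' handling and of the total RNA composition in the miR differences was not tested.

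Of the other miRs without overlap, miR-423-5p read 636, 435 and 442 early, 987 and 1421 on days 7 and 10, and 646, 1105 and 930 late. Its day 14 pool was barely above that of day 1, and day 10 lay above them all, with a difference of 0.76 (adjusted p = 0.221 in limma). miR-103 and miR-107, which sit in the pantothenate kinase genes (Pank2 and Pank3 for miR-103, Pank1 for miR-107) and are known for a part in insulin signalling, were higher by 0.49 and 0.45. Their day 10 values, at 3214 and 2827, were above all late pools, which reached 1996 and 1777. miR-140*, encoded within the span of Wwp2 and known from cartilage, was higher by 0.66, and miR-805, one of the doubted entries, by 0.36.

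**Figure D4:**
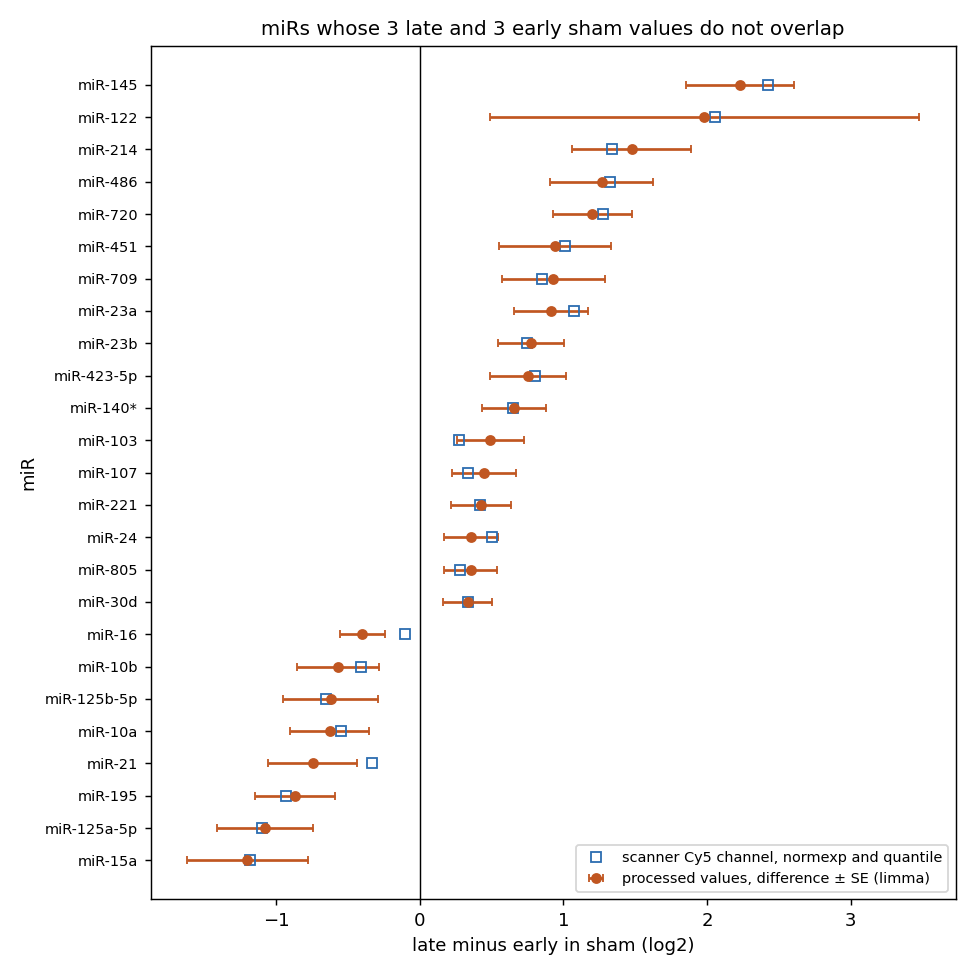
Late minus early difference in sham (log2) for the 25 miRs whose periods do not overlap. Circles with bars are the processed values with the limma SE and open squares the scanner intensities of the Cy5 channel after normexp and quantile normalization, which lie on the same side of 0 for all 25, from 2.42 for miR-145 to -1.18 for miR-15a.

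The samples of days 7 and 10, which entered the filter on brightness but not the comparison of the periods, lay between the mean log2 values of the periods in fewer than all. Day 7 lay between them in 16 of the 25 (64%) and day 10 in 9 (36%), against 26 (28.9%) and 14 (15.6%) of the 90 tested, though the gap between the periods is by choice wider in the 25 than in the rest. Both days lay between in 8 miRs, all of them among the 25, namely miR-145, miR-214, miR-122, miR-23b, miR-709, miR-30d, miR-16 and miR-195, with miR-122 near background on both days. Day 7 was nearer to the late mean than to the early one in 6 of the 25 and day 10 in 16, against 41 and 50 of the 90. For miR-10a, miR-10b and miR-21 day 7 was at or above most early pools while day 10 was in the late range or below it. The median difference between these neighbouring days over the 90 miRs was 0.71 on the log2 scale without sign, above the 0.20 to 0.38 between late pools and the 0.37 to 0.46 between early pools.

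The 3 most negative differences, and that of miR-574-5p, belonged to miRs whose periods overlap and whose letters hold a dinucleotide repeat. miR-574-3p and miR-467b* passed the filter on brightness only through single pools, their means over the other sham pools being 132 without day 1 and 144 without day 5, so their differences are given as a description. The letters of miR-574 are shown because both arms of its hairpin, which lies within the spans of Fam114a1 and Tlr6, were measured. The capitals mark the first run of the repeat, and a later GUGUGU at the end of miR-574-5p is left in small letters.
miR-574-3p (chr5:64970364-64970385, GRCm38.p6, + strand): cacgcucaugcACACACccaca
miR-574-5p (chr5:64970328-64970350, GRCm38.p6, + strand): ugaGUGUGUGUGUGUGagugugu
ACACAC was searched on the miR strand alone and was held by 3 of the 90 tested miRs (3.33%) and 10 of the 569 on the array (1.76%), and GUGUGU by 1 and 15. The value of miR-466f-3p was 1357, 60 and 980 early, 25 and 628 on days 7 and 10, and 85, 92 and 198 late, and that of miR-574-3p was 752, 57 and 280, then 26 and 331, and then 62, 73 and 97. miR-574-5p, from the other arm of the hairpin, read 1110, 88 and 383 early and 133, 157 and 226 late, and miR-467b* 329, 50 and 1878 early and 65, 37 and 217 late. All 4 were high on days 1, 5 and 10 and low on days 3 and 7. Their differences were -1.69, -1.27, -0.91 and -1.59, and the adjusted p of miR-466f-3p was 0.386 and that of miR-574-5p 0.577 in limma. Without the day 3 pool miR-466f-3p passed, at -2.84 (adjusted p = 0.0163 in limma), in 1 of 22 settings. In the IRI pools miR-466f-3p read 130, 222 and 203 on days 1, 3 and 5 and 164 and 297 on days 7 and 10, and miR-467b* read 35, 57 and 174 and then 37 and 84. The latter was thus also higher on days 5 and 10 than on days 3 and 7 there, though not on day 1. By contrast miR-466f-3p, miR-574-3p and miR-574-5p were lower on day 5 than on day 3 in IRI. Their day 3 and day 5 values there were 120 and 117 for miR-574-3p and 313 and 290 for miR-574-5p.

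The same days were compared in the IRI channel, to ask whether a difference between the periods was shared. There 9 of the 90 miRs passed (10%), 3 higher late (3.33%) and 6 lower (6.67%; limma, adjusted p under 0.05), and of these only miR-805 was among the 25 without overlap in sham. The difference between the arms, tested on the log2 ratio of IRI to sham of each array, passed for 1 miR of 90 (1.11%), miR-805, and 21 (23.3%) passed at an unadjusted p under 0.05. miR-805 measured 15836, 13565 and 12817 early and 16507, 17307 and 20212 late in sham, and 11063, 7580 and 7457 early and 1714, 3403 and 1928 late in IRI. Its difference was 0.36 ± 0.19 (SE, adjusted p = 0.363) in sham and -1.91 ± 0.30 (SE, adjusted p = 0.014) in IRI, and that between them was -2.26 ± 0.34 (SE, adjusted p = 0.03, all in limma). Leaving out the day 1, 3, 5, 14 or 30 arrays brought this above the threshold, with no miR passing.

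For the other miRs the arms are given side by side, since no difference between them passed in the main comparison. miR-146a and miR-150, level in sham at 0.08 and -0.02, differed between the arms by 2.21 ± 0.45 and 1.45 ± 0.29 (SE, adjusted p = 0.0605 for both in limma). miR-145 differed by 2.23 in sham and by 0.72 in IRI, and the difference between these was -1.51 ± 0.49 (SE, adjusted p = 0.109 in limma). miR-214, miR-23a and miR-23b were higher late in both arms, by 1.29, 0.64 and 0.53 in IRI. miR-10a, miR-10b, miR-125a-5p and miR-125b-5p were below 0 in sham and above 0 in IRI, where they were at 0.41, 0.39, 0.50 and 0.69, with differences between the arms of 0.96 to 1.58 (adjusted p = 0.106 for each in limma). miR-451 and miR-486 were at -1.42 and -0.67 in IRI, with differences between the arms of -2.36 and -1.93 (adjusted p = 0.106 for both in limma). miR-195, at -0.02 in IRI, had the same adjusted p in this comparison of the periods. With a slope over log2(day) in place of the periods, the arms differed for miR-451 and miR-486 (adjusted p = 0.0019 and 0.00434 in limma).

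**Figure D5:**
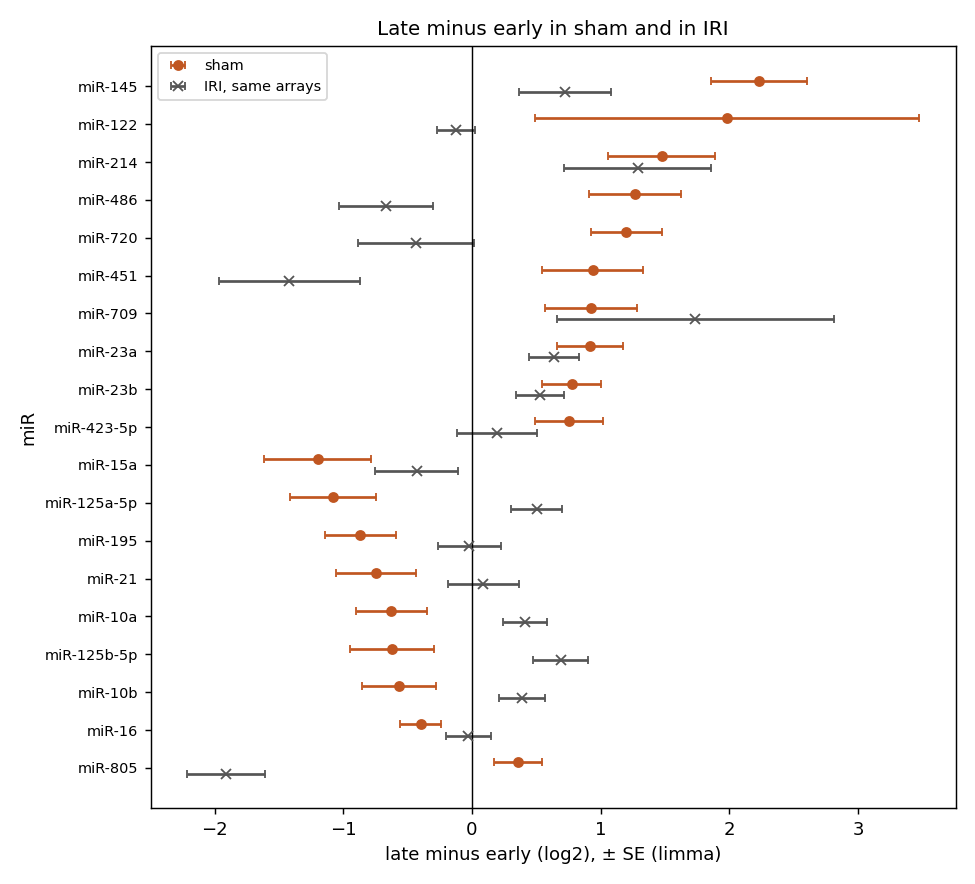
Late minus early difference (log2) with its limma SE in sham (circles) and in IRI (crosses, the other channel of the same arrays) for the 18 miRs with the largest differences without overlap in sham and for miR-805. miR-805 lies at 0.36 in sham and at -1.91 in IRI, and it is the only miR shown for which the difference between the arms passed in the main comparison.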

How the data were processed

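Kidney miRs of 17 pooled samples were read on LC Sciences arrays with probes for 569 mature mouse miRs. The authors deposited a table of processed intensity values, 1 per probe and sample on a linear scale, whose scaling no source used here gives. Per the labels, small RNA was tailed with poly(A) and tagged for dye staining. The authors also deposited scanner files with the uncorrected intensity of every spot, 6 per miR. The 48 control rows of the 617 were kept out of the tests. The scanner file of day 5 names its channels A and B, taken as IRI and sham by the layout of the other 7 files.

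The filter was a mean processed value of at least 200 over the 8 sham samples. The level of 200 is the study's, which applied it over its own samples and also as a floor. Values were compared as log2(value + 50) with limma 3.58.1 in R 4.3.3 (lmFit and eBayes), Benjamini-Hochberg adjustment over the 90 miRs tested and a threshold of 0.05. Background was counted as the median of the 250 empty spots plus 3 median absolute deviations. Scanner intensities were corrected with normexp (offset 50). Each array gave 1 value per miR, so precision is limited by the number of arrays. Named were the 10 miRs with the largest positive and negative differences without overlap (only 8 were negative), the brightest of each list and other members of their lists. The repeat-holding miRs and the other miRs without overlap were chosen after their values were seen. Members, lists and tests were chosen with earlier results of these data known. Scripts were tested on simulated data. Alternatives covered the source and scaling of the values, pseudocount, floor, filter, variance model, days 7 and 10, a slope and each pool left out.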

Additional observations from a re-analysis of the deposited data

Results flagged for a closer look

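The late minus early difference of miR-805 differed between the arms by -2.263 on the log2 scale (IRI less sham, adjusted p = 0.03003 in limma, n = 3 late and 3 early arrays), the only one of 90 for which a test of that difference passed in the main comparison. It is one of the array's entries that are doubted as miRs. Its IRI pools were lower on all 3 late days than on any early day and its sham pools higher on all 3. Over the alternatives the adjusted p ran from 0.0165 to 0.123, and it was under the threshold in 11 of 17 settings.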

How the results depend on the processing

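The 25 miRs were picked because their periods did not overlap, so their sign could change only under another scaling or source of the values. There all 25 kept it, and 13 to 17 of them stayed apart, with 18 in quantile-normalized scanner values without the day 5 channel. With the processed values the split of higher to lower without overlap, 17 to 8, was 5 to 20 after median scaling (median difference -0.24) and 12 to 6 after quantile normalization. With scanner values, which change source, background correction and scaling together, it was 9 to 15 (median -0.19) with empty spots subtracted, 10 to 10 with loess and 10 to 7 with quantile normalization. miRs called late against early in sham numbered 2 with quantile-normalized scanner values (also 2 without the day 5 channel, an alternative chosen after seeing the data), 1 with a pseudocount of 200, 1 with an intensity trend and robust variance, 1 with days 7 and 10 as a group of their own, 2 with a slope, 0 to 1 when a pool was left out, and 0 elsewhere. Between the arms 3 were called with loess, 2 with a floor of 200, 3 without a filter, 4 with a slope, 0 with a trend and robust variance, and 0 to 2 when an array was left out (miR-146a and miR-150 were among those called with loess, miR-451 and miR-486 with a slope, and miR-720 without day 21). Both days between the periods held for 8 miRs, for 24 without a filter, 5 after median scaling, 4 with empty spots subtracted, 5 with quantile-normalized scanner values and 4 to 10 when a pool was left out. Small differences changed sign: let-7a was -0.12 after median scaling, -0.0367 with quantile-normalized processed values, -0.0418 with empty spots subtracted, -0.0369 with quantile-normalized scanner values and -0.0369 without the day 5 channel; miR-29a was -0.14 and -0.17, and miR-92a -0.10 and -0.0477, after median scaling and with empty spots subtracted. When a pool was left out, miR-155 ranged from -0.59 to 0.0899, miR-29a from -0.12 to 0.29, miR-92a from -0.0594 to 0.35, miR-126-3p from -0.53 to 0.0229 and miR-30c from -0.51 to 0.11, and miR-126-3p was 0.0295 without the day 5 channel. The causes were not tested. No paired analysis was possible because the early and late sham samples share no number in the labels. Slide and scan as a block were not run, since the files used here give neither.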
